A study of Mus musculus with 11 samples.

Results

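Expression of 40 genes of fatty acid oxidation and of the peroxisome was compared between the colons of germ-free and humanized mice. The genes are the rows of the deposited count table whose gene name is on a list of 16 mitochondrial enzymes, 12 peroxisomal enzymes, 4 long-chain acyl-CoA synthetases, 7 peroxins and 1 cytosolic thioesterase, and they are 40 of the 43346 genes of the table. All 40 were found, and 39 of them were among the 19863 genes that passed the filter on low counts. The remaining one, Acot12, which encodes a cytosolic thioesterase that hydrolyses acetyl-CoA, had between 0 and 22 counts in any mouse and was not tested. The rule picks rows by gene name and uses no measured value, but the list was drawn up with earlier results of these data known.

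The mice were male Swiss Webster animals of 8 to 10 weeks, kept singly in isolators on autoclaved diet and water. The 5 germ-free mice carried no microbiota. The 6 humanized mice were bred germ-free and colonized by gavage with 300 µL of human stool suspension when 4 to 5 weeks old, and the microbiota was left to adapt for 4 to 5 weeks. Every humanized mouse received stool of the same healthy person, so the group represents 1 donor community. Polyadenylated RNA of whole colonic tissue was sequenced, and each library is 1 mouse. Total counts on genes ranged from 49097005 to 64148538 in germ-free mice and from 39125290 to 54219854 in humanized mice, and each tested gene of the list had at least 297 counts in every mouse. Levels are given as TMM-normalized RPKM, which scales reads to gene length and library size, and the log2-fold change (LFC) is that of humanized over germ-free mice. A gene was called when the false discovery rate (FDR) of edgeR's exact test was below 0.01. Of all tested genes, 9.20% were called higher in humanized mice and 10.1% were called lower, with a median LFC of 0.0084.

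Long-chain fatty acids are activated to acyl-CoA by synthetases and enter the mitochondrion as carnitine esters, through the outer palmitoyltransferase, a carrier and the inner palmitoyltransferase. A repeating spiral of dehydrogenation, hydration, a further dehydrogenation and thiolysis then shortens the chain, and the electrons of the first step pass through the electron transfer flavoprotein to ubiquinone. Peroxisomes shorten very long, branched and dicarboxylic acids with enzymes of their own, and hand the shortened chains on as carnitine esters or free acids. Peroxins import these enzymes and build the organelle. In the colon, the absorptive epithelial cells are known to draw much of their energy from fatty acid oxidation, above all of short chains such as butyrate made by bacteria. Many of the genes are textbook targets of PPAR receptors, which bind pairs of the half-site AGGTCA as partners of RXR.

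The sequences that bear on the results below are the start regions of the neighbouring genes Hadha and Hadhb and of the thiolase genes Acaa1a and Acaa1b, whose transcripts share stretches of sequence, and the windows around each AGGTCA half-site found. Promoters of 34 of the 40 genes were matched by symbol in RefSeq sequence of GRCm38.p6, which is mm10, from 250 bases before to 50 after the start. Hadha and Hadhb lie head to head on chromosome 5 with starts 86 bases apart, and the 85 bases between them (chr5:30155163-30155247, plus strand) are shown with GGGCGG, the core of a GC box, in capitals. The 100 bases before the RefSeq starts of Acaa1a (chr9:119341194-119341293, plus strand, inside the span of the gene in the deposited table) and Acaa1b (chr9:119157094-119157193, minus strand) follow, with GGGCGG or ATTGG, the reverse complement of CCAAT, in capitals. None of these 3 stretches contains a base of an annotated exon of the gene or genes it is named for, and exons of other genes were not checked there.
Hadha-Hadhb: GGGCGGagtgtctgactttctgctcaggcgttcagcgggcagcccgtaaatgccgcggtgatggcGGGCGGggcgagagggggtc
Acaa1a: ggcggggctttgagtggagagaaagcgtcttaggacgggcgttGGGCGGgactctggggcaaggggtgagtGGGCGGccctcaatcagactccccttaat
Acaa1b: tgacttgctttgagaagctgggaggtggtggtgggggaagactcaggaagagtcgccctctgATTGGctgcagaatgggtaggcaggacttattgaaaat

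Half-sites, AGGTCA or its reverse complement TGACCT in capitals, were found in the promoters of Cpt1a (chr19:3323197-3323222, plus strand), Acadvl (chr11:70015500-70015525, minus strand), Acadm (chr3:153944877-153944893, minus strand, at the edge of the window), Scp2 (chr4:108118641-108118666, minus strand, inside the span of the gene), Phyh (chr2:4919022-4919045, plus strand, within an annotated exon) and Acot12 (chr13:91741401-91741426, plus strand).
Cpt1a: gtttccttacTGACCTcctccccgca
Acadvl: ggatcaccctAGGTCAggtagaatac
Acadm: gTGACCTtcgggctccg
Scp2: ctaacacagtAGGTCAaaagaaccca
Phyh: aagttaagtgTGACCTgggcgcag
Acot12: cgtaggacccTGACCTctcacctcct

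Searched on both strands, AGGTCA occurred in 6 of the 34 promoters (17.6%) and in 16.3% of all 32851 promoters of the same length. The direct repeat of AGGTCA with 1 base of any kind between the copies occurred in 0 of the 34 and in 0.0396% of all. With only 13 promoters of all holding it, almost any set of 34 would have none, so the 0 tells nothing about these genes. Only exact matches inside these windows were searched. GGGCGG occurred in 27 of the 34 (79.4%) against 35.7% of all, and CCAAT in 17 of the 34 against 37.4% of all. A match to these letters is a description of the window and not a bound site.

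In humanized mice 23 of the 39 tested genes were higher, 1 was lower and 15 were not called. Of all tested genes 19.3% were called, with 9.20% higher and 10.1% lower. The median LFC of the 39 genes was 0.34, and 36 had an LFC above 0. In 18 of the 23 higher genes every humanized mouse was above every germ-free mouse, a separation seen upward in 8.67% of all tested genes, and Acsl1 was separated downward, as were 9.73% of all. The genes are abundant ones, with 30 of 39 at or above the 80th percentile of RPKM in humanized mice, and among the 3973 tested genes at that level 28.2% were called higher and 1.81% lower. That set was chosen by the level in humanized mice, so genes that rose enter it more readily than genes that fell. By germ-free RPKM, 14 of the 16 mitochondrial enzymes reached the 80th percentile, and by humanized RPKM all 16 did. By place, 14 of 16 mitochondrial enzymes, 6 of 12 peroxisomal enzymes, 1 of 4 synthetases and 2 of 7 peroxins were higher. The median LFC was 0.57, 0.38, −0.11 and 0.15 in that order. When libraries were scaled to 11 epithelial marker genes instead, 12 genes were higher and 1 was lower, against 2.79% higher and 10.9% lower of all tested genes, with 10 of 16 mitochondrial and 2 of 12 peroxisomal enzymes higher.

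**Figure D1:**
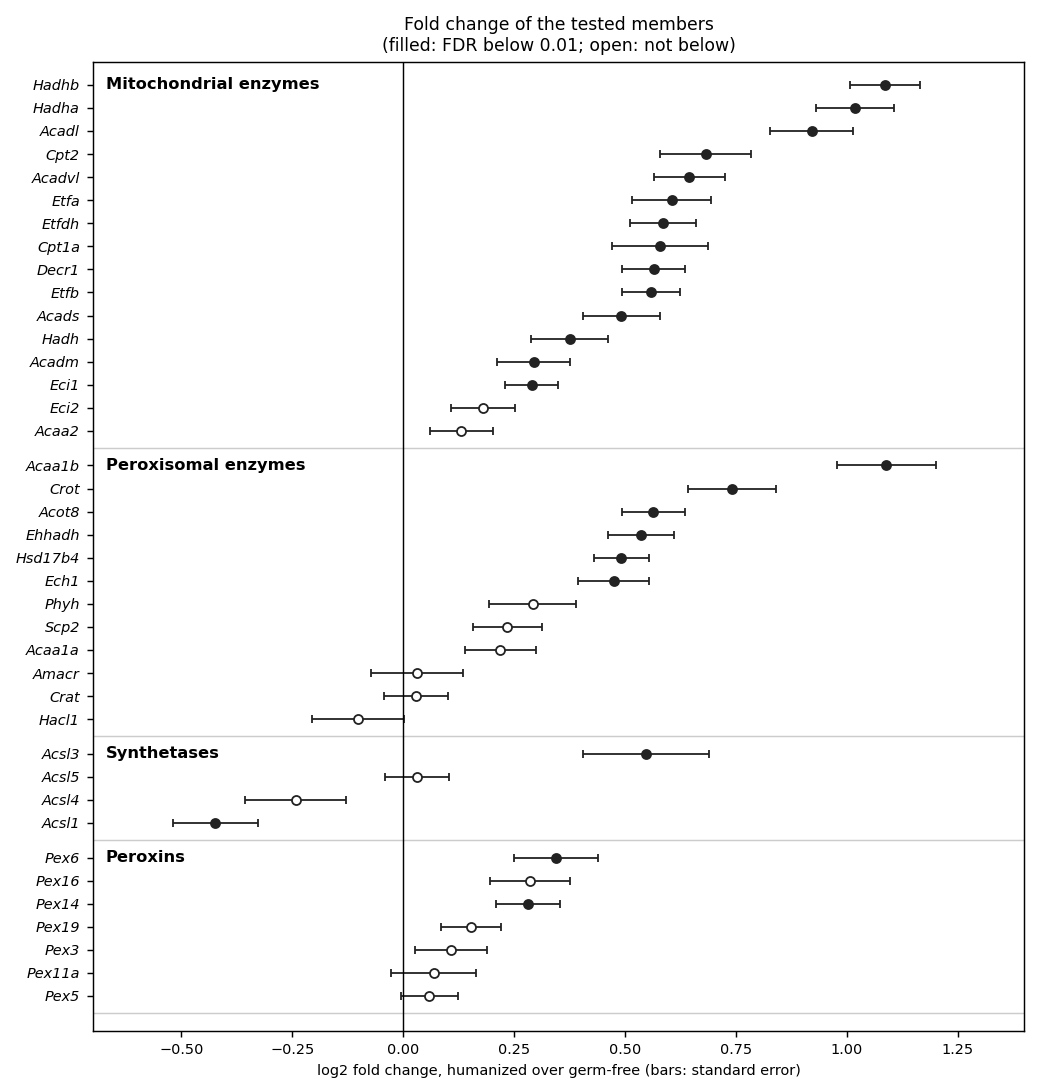
LFC of humanized over germ-free mice (x axis, with the standard error) for the 39 tested genes, grouped by place (y axis). Filled points have an FDR below 0.01. Mitochondrial enzymes spanned 0.13 to 1.09 and peroxins 0.059 to 0.34, and 9 of the genes near 0 fell below 0 when libraries were scaled to total counts or to epithelial markers.

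Both palmitoyltransferases of the carnitine shuttle rose. Cpt1a, the outer enzyme that sets the rate of entry, went from 59.1 ± 4.31 to 88.2 ± 14.1 RPKM (SD, n = 5 and n = 6; LFC 0.58 ± 0.11 (SE), FDR = 1.12e-05). Cpt2, the inner enzyme, lies at chr4:107903981-107923610 on mm10. Its RPKM was 26.6, 34.9, 33.4, 35.6 and 37.9 in germ-free mice 1 to 5, and the lowest, median and highest humanized values were 44.7, 53.7 and 61.9. Germ-free mouse 1 was lowest, no value was shared between the groups, and the gene was 1.60-fold higher (LFC 0.68 ± 0.10 (SE), FDR = 4.85e-08).

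All 4 acyl-CoA dehydrogenases of the first step, which are named for the chain lengths they take, rose. Acadvl takes very long chains (chr11:70010183-70015411), and its RPKM was 54.1, 65.4, 61.4, 63.1 and 67.2 in germ-free mice 1 to 5, and the lowest, median and highest humanized values were 84.7, 95.8 and 109. The groups did not overlap (LFC 0.65 ± 0.079 (SE), FDR = 6.90e-11), although 42.9% of its exon bases are shared with Dvl2 on the other strand, and the library kit does not mark strand. Acadl takes long chains (chr1:66830839-66863277). Its RPKM was 51.0, 63.6, 57.8, 62.2 and 64.3 in germ-free mice 1 to 5, and the lowest, median and highest humanized values were 91.3, 111 and 131. Every humanized mouse was above every germ-free mouse, at 1.89-fold overall (LFC 0.92 ± 0.094 (SE), FDR = 1.51e-16), and no exon base of another gene bears on this value. Acadm, for medium chains, was called with overlapping groups (LFC 0.29, FDR = 0.00799), and this call was lost with the quasi-likelihood test, under RLE, total-count or epithelial scaling, with either other filter, and without any single mouse except humanized mouse 1 or 3. Acads takes short chains including butyryl-CoA (chr5:115110299-115119346) and had the highest mean RPKM of the mitochondrial enzymes in humanized mice. Within germ-free mice its mean of 103 RPKM was below the 112 of Acaa2. The RPKM of Acads was 99.7, 108, 102, 102 and 103 in germ-free mice 1 to 5, and the lowest, median and highest humanized values were 123, 149 and 170.5. The groups did not overlap (LFC 0.49 ± 0.086 (SE), FDR = 6.27e-06).

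The mitochondrial trifunctional protein, whose alpha and beta subunits carry out the last 3 steps on long chains, had the highest LFC values of the spiral. Hadha, the alpha subunit with the hydratase and dehydrogenase (chr5:30118301-30155162), was 2.02-fold higher (LFC 1.02 ± 0.089 (SE), FDR = 1.66e-22). Its RPKM was 29.0, 33.7, 32.7, 34.8 and 35.3 in germ-free mice 1 to 5, and the lowest, median and highest humanized values were 55.2, 66.2 and 78.9. Hadhb, the beta subunit with the thiolase (chr5:30155248-30184593), was 2.12-fold higher (LFC 1.09 ± 0.079 (SE), FDR = 3.47e-30). Its RPKM was 16.8, 19.1, 18.1, 19.7 and 20.1 in germ-free mice 1 to 5, and the lowest, median and highest humanized values were 34.7, 39.5 and 44.6. In both genes the lowest humanized mouse was far above the highest germ-free mouse, and both start at the 85 bases shown above. Counts of Hadha per count of Hadhb were 1.396 to 1.47 in germ-free and 1.22 to 1.52 in humanized mice, overlapping ranges. The Hadhb transcript is 99.8% identical to the processed copy Gm13910 over 1428 of its 2048 bases, and 97.6% identical to Gm9108 over 1426 bases. Reads of one of these could thus be counted on another. Gm13910 itself had LFC 1.05, FDR = 1.21e-27.

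Separate enzymes act on shorter chains in the later steps. Hadh, the dehydrogenase for medium and short chains, was higher with overlapping groups (LFC 0.38, FDR = 8.21e-04), and it was not called under total-count or epithelial scaling. Acaa2, the thiolase for these chains, was not called (LFC 0.13, FDR = 0.251), and its direction was downward when libraries were scaled to total counts or to epithelial markers. It was among the most abundant, and its RPKM was 107, 115, 108, 115 and 116 in germ-free mice 1 to 5, and the lowest, median and highest humanized values were 106, 125 and 137, so the groups overlapped. The ratio of Acadl to Acaa2 counts within a mouse, which no scaling of libraries alters, was 0.629 to 0.734 in germ-free mice and 1.11 to 1.30 in humanized mice. These ranges were apart by more than the spread within either group, and this pair was chosen after its values were seen.

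All 3 genes of electron transfer rose. Etfa and Etfb, the subunits of the flavoprotein, had LFC 0.61, FDR = 4.21e-08 and LFC 0.56, FDR = 1.43e-10, and Etfdh, which passes the electrons to ubiquinone, had LFC 0.59, FDR = 6.87e-10. In each the groups did not overlap. Etfb shares 58.2% of its exon bases with other genes, mostly Gm45233, and part of the Etfa transcript resembles Gm15285. Of the 3 auxiliary enzymes for unsaturated chains, Decr1, the dienoyl-CoA reductase, rose from 12.9 ± 0.698 to 19.1 ± 1.78 RPKM (LFC 0.56, FDR = 1.17e-09). Eci1, an enoyl-CoA isomerase, rose too (LFC 0.29, FDR = 0.00117) but was not called under total-count or epithelial scaling, and Eci2, an isomerase also known in peroxisomes, was not called (LFC 0.18, FDR = 0.102).

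**Figure D2:**
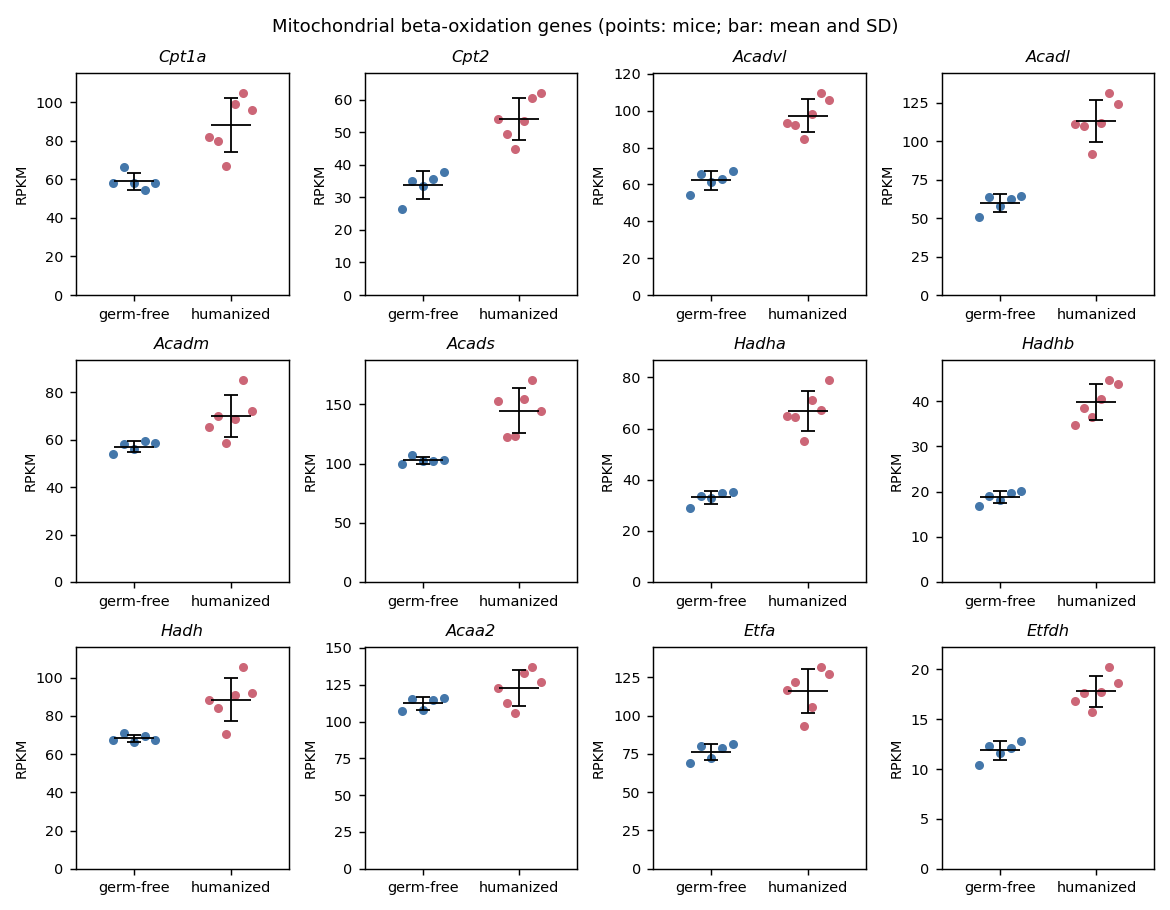
TMM-normalized RPKM (y axis, from 0) of 12 mitochondrial genes in 5 germ-free and 6 humanized mice (x axis). Each point is a mouse and bars give the mean and SD. Hadha and Hadhb separate most, while Acaa2 values overlap.

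The mice kept a similar order across the mitochondrial enzymes. Humanized mouse 3 was the lowest of its group in 13 of 16 genes and humanized mouse 5 the highest in 12, and germ-free mouse 1 was the lowest of its group in 13. The median coefficient of variation of the 16 genes was 6.76% in germ-free and 10.99% in humanized mice, against 10.4% and 16.5% over all tested genes. These mice also stood apart in other values. Humanized mouse 5 had the lowest smooth muscle (38.0 RPKM), fibroblast (21.2) and macrophage (32.4) marker sums and the lowest TMM factor (0.876) of its group, humanized mouse 3 had the highest fibroblast (147) and macrophage (215) sums and the highest factor (1.03), and germ-free mouse 1 had the highest factor of its group (1.12). Germ-free mouse 1 and humanized mouse 3 also had the lowest epithelial marker sums of their groups, 3896 and 4454 RPKM. The part of these in the order was not tested. Of the 11 mitochondrial enzymes without notable sequence shared with another gene, 10 were higher.

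Markers of other cell types also differed between the groups, and their part in the results was tested only through the epithelial scaling given below. In bulk tissue, fewer cells of a type and less RNA per cell cannot be told apart. All 9 smooth muscle markers and 5 of 6 fibroblast markers fell, and the summed RPKM of the former ranged from 279 to 853 in germ-free and 38.0 to 297 in humanized mice. Both upper limits are 1 library, germ-free mouse 4 with the next at 469 and humanized mouse 6 with the next at 119, and without humanized mouse 6 the groups did not overlap. The summed RPKM of the fibroblast markers ranged from 171 to 286 and from 21.2 to 147. Of 11 epithelial markers 1, Krt18, rose, their median LFC was 0.21, and their sum ranged from 3896 to 5386 in germ-free and 4454 to 6159 in humanized mice. Among markers of goblet cells 4 of 6 rose, and among those of plasma cells 3 of 4 found. Of 5 macrophage markers found, Mrc1 fell, with sums of 99.3 to 127 and 32.4 to 215. Of the colon markers, Car1, Cdx2 and Muc2 were present in both groups, Hoxb13 had at most 4 counts in a mouse, Car1 rose and Hoxd10 fell. Of 7 small intestine markers Sis fell, 4 were not called, and Lct and Gata4 had at most 29 counts and were not tested. Adipocytes also oxidize and store fatty acids. The 4 tested of their 7 markers summed to 12.2 to 39.1 RPKM in germ-free mice and 16.5 to 23.7 in humanized mice. The 39.1 was germ-free mouse 4, and the other germ-free mice lay at 12.2 to 14.8, below all humanized mice. Of the 4 tested, Lpl rose (LFC 0.88), and Cidec (LFC 0.29), Fabp4 (LFC −0.97) and Cfd (LFC −1.37) were not called. Mean RPKM of Lpl went from 5.42 to 9.96 and that of Fabp4 from 4.59 to 2.34. Adipoq, Plin1 and Lep did not pass the filter on low counts. Germ-free mouse 4 had 333, 125 and 60 counts of them, and the other mice at most 40, 16 and 10. Of 6 skeletal muscle markers 2 fell, and Myh1 had 0 counts in all 11 mice.

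The summed RPKM of the mitochondrial enzymes was 20.1, 18.0, 17.7, 18.7 and 16.3% of the sum of the epithelial markers in germ-free mice 1 to 5, and 21.2 to 24.5% in humanized mice, with no overlap. Scaling by total counts or by epithelial markers moved the median LFC of all tested genes to −0.18, and that of the mitochondrial enzymes to 0.38 and 0.37. Over all genes, 1827 were higher and 1999 lower with TMM, 773 and 3609 with total counts, and 555 and 2163 with epithelial markers. Under the epithelial scaling, Cpt1a, Cpt2, Acadvl, Acadl, Hadha, Hadhb, Etfa, Etfb, Etfdh and Decr1 were still called, and Acadm, Acads, Hadh and Eci1 were not.

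**Figure D3:**
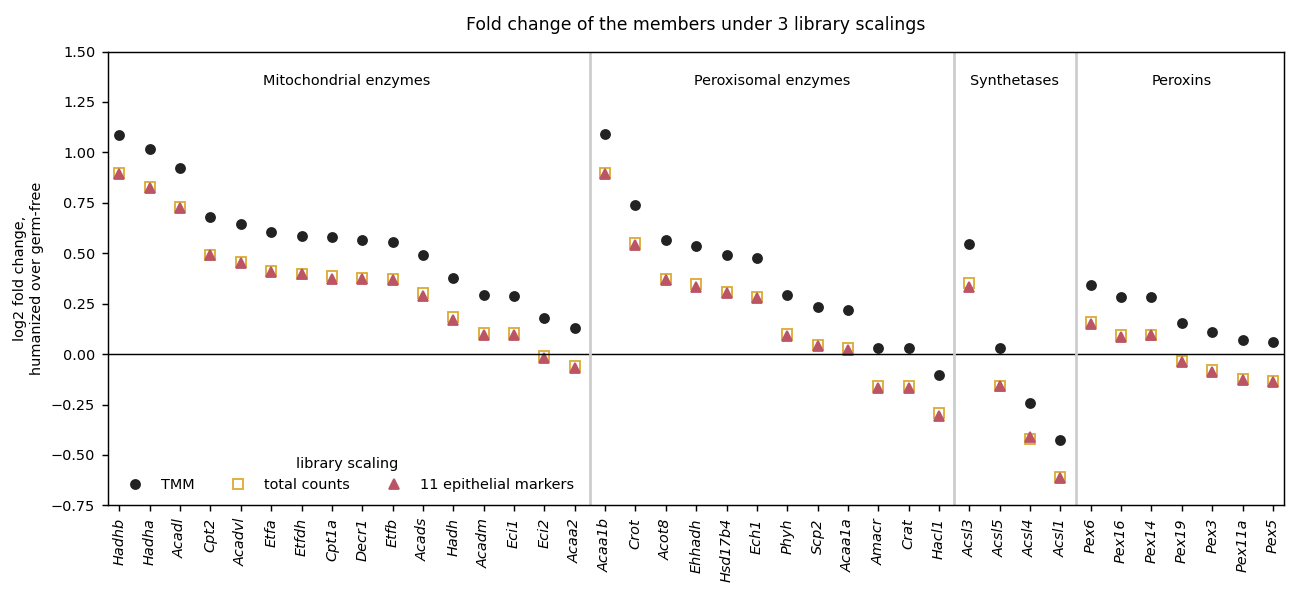
LFC of humanized over germ-free mice (y axis) for each of the 39 genes (x axis) with libraries scaled by TMM, by total counts or by 11 epithelial markers. Hadhb, Hadha, Acadl and Acaa1b stay highest in their groups under all 3 scalings, while Acaa2, Eci2 and 7 others change sign.

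Among the 6 peroxisomal genes of beta-oxidation, 4 rose. Ehhadh, the L-bifunctional hydratase and dehydrogenase of dicarboxylic acids (chr16:21761287-21787844), was higher without overlap (LFC 0.54 ± 0.074 (SE), FDR = 2.85e-08). Its RPKM was 23.9, 24.8, 23.7, 23.6 and 23.4 in germ-free mice 1 to 5, and the lowest, median and highest humanized values were 30.4, 33.6 and 42.0. Hsd17b4, the D-bifunctional enzyme for very long and branched chains, had LFC 0.49 ± 0.062 (SE), FDR = 5.32e-09. Its RPKM was 21.4, 23.7, 23.4, 24.7 and 25.1 in germ-free mice 1 to 5, and the lowest, median and highest humanized values were 30.9, 33.3 and 37.1, and the groups did not overlap. Ech1, a dienoyl-CoA isomerase known in peroxisomes and mitochondria, had the highest mean RPKM of the 12 peroxisomal enzymes of the list in humanized mice. Within germ-free mice its mean of 80.6 RPKM was below the 82.5 of Phyh. The RPKM of Ech1 was 73.4, 81.9, 81.1, 83.3 and 83.3 in germ-free mice 1 to 5, and the lowest, median and highest humanized values were 96.3, 117 and 126, again without overlap (LFC 0.47 ± 0.081 (SE), FDR = 4.57e-06).

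Of the paired thiolase genes of the last step, Acaa1b was called and Acaa1a was not. Acaa1b (chr9:119148023-119157093, LFC 1.09 ± 0.11 (SE), FDR = 1.75e-16) was 2.13-fold higher in humanized mice. Its RPKM was 10.4, 9.98, 10.6, 14.1 and 11.98 in germ-free mice 1 to 5, and the lowest, median and highest humanized values were 18.7, 24.2 and 27.9, with every humanized mouse above every germ-free mouse. Acaa1a (chr9:119339676-119350299) was not called (LFC 0.22 ± 0.081 (SE), FDR = 0.0584), and its RPKM was 20.3, 21.5, 21.2, 22.6 and 22.9 in germ-free mice 1 to 5, and the lowest, median and highest humanized values were 20.3, 26.1 and 28.3, so that its groups overlapped. The count of Acaa1b per count of Acaa1a was 0.229, 0.207, 0.222, 0.276 and 0.233 in germ-free mice 1 to 5 and 0.476, 0.409, 0.466, 0.390, 0.418 and 0.409 in humanized mice 1 to 6. Every humanized mouse was above every germ-free mouse in this ratio, which no scaling of libraries alters. The transcripts are 98.7% identical over aligned stretches of up to 783 bases, so reads of these stretches cannot be assigned with certainty, and Acaa1b shares 11.4% of its exon bases with Dlec1. The 100 bases before their starts, shown above, contain GGGCGG in Acaa1a and CCAAT in Acaa1b, and the longer promoter of Acaa1a contains CCAAT too. Scp2, whose larger product is the thiolase of branched chains, was not called (LFC 0.23, FDR = 0.0304), and it has a copy, Scp2-ps2, with 99.8% identity over 475 bases.

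Of the enzymes that release the shortened chains, Crot and Acot8 rose and Crat was not called. Crot, carnitine octanoyltransferase (chr5:8966033-8997324), makes medium-chain carnitine esters for export to mitochondria. Its RPKM was 6.18, 5.80, 6.24, 6.33 and 6.70 in germ-free mice 1 to 5, and the lowest, median and highest humanized values were 8.09, 10.1 and 12.6, without overlap (LFC 0.74 ± 0.099 (SE), FDR = 1.25e-09). Crat, the transferase of short chains found in both organelles, was not called (LFC 0.029, FDR = 0.848). Acot8, a peroxisomal thioesterase that frees acids from CoA (chr2:164792768-164804882), shares 12.3% of its exon bases with Snx21. Its RPKM was 13.6, 13.5, 13.2, 12.1 and 13.2 in germ-free mice 1 to 5, and the lowest, median and highest humanized values were 17.5, 19.2 and 22.6. The groups did not overlap (LFC 0.56 ± 0.070 (SE), FDR = 5.54e-09).

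The genes that prepare branched chains were not called. Phyh, the hydroxylase that starts alpha-oxidation of phytanic acid, was abundant and its humanized values spread widely, from 79.0 to 123 RPKM (LFC 0.29, FDR = 0.0285). Hacl1, the lyase of the next step, was low, at 1.92 and 1.78 RPKM (LFC −0.10, FDR = 0.627), and Amacr, the racemase of branched chains, had LFC 0.031, FDR = 0.896. The medians of the 7 peroxisomal enzymes without notable shared sequence and of all 12 were 0.47 and 0.38, and 4 of those 7 rose. Without humanized mouse 2 Acaa1a was called, and without humanized mouse 3 Scp2 and Phyh were. Under the epithelial scaling Acaa1b and Crot remained called, while Ehhadh, Hsd17b4, Ech1 and Acot8 did not. The LFC of the latter lay between 0.28 and 0.37 there, with FDR values of 0.0124 to 0.0251, and total-count scaling kept their calls.

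**Figure D4:**
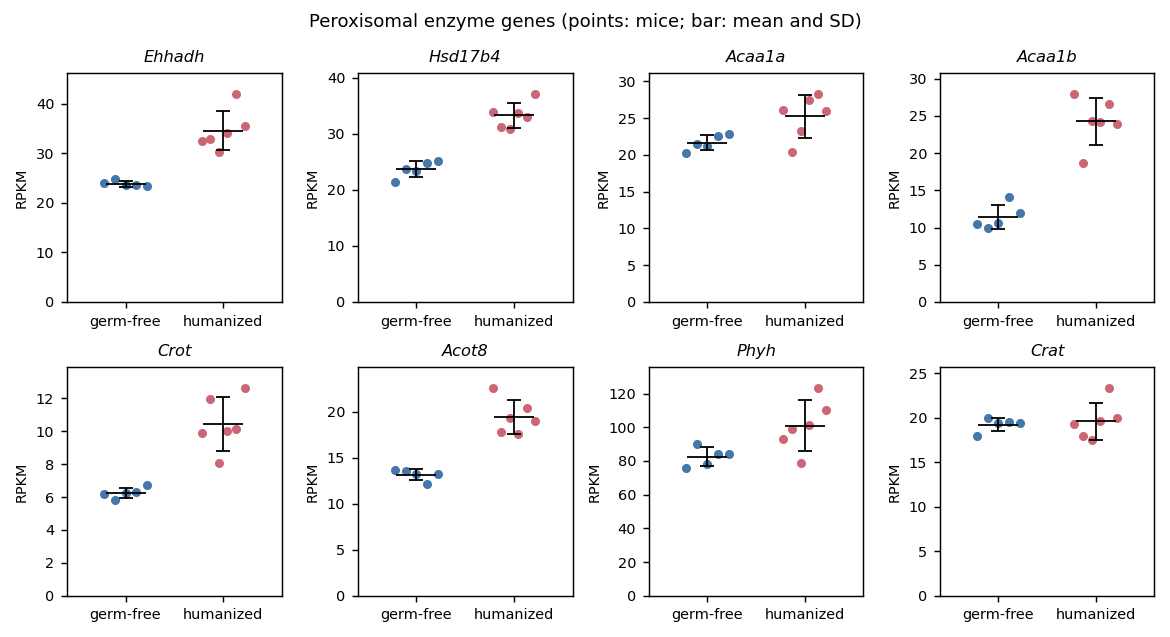
TMM-normalized RPKM (y axis, from 0) of 8 peroxisomal genes in 5 germ-free and 6 humanized mice (x axis). Each point is a mouse and bars give the mean and SD. Acaa1b separates between the groups and Acaa1a does not.

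The 4 long-chain acyl-CoA synthetases, which activate fatty acids before any of these steps, did not move together. Acsl1, at chr8:46471041-46536051, is the form best known for feeding oxidation in muscle, fat and liver. Its RPKM was 4.06, 4.32, 3.64, 3.92 and 3.66 in germ-free mice 1 to 5, and the lowest, median and highest humanized values were 2.21, 3.005 and 3.35. It was the one gene of the list that fell, without overlap (LFC −0.42 ± 0.096 (SE), FDR = 8.94e-04), and it stayed lower under total-count and epithelial scaling. Acsl3, a form of the endoplasmic reticulum and lipid droplets with the highest mean RPKM of the 4 in humanized mice, rose with overlapping groups. Its RPKM was 40.4, 49.2, 36.7, 31.7 and 35.0 in germ-free mice 1 to 5, and the lowest, median and highest humanized values were 46.9, 51.9 and 75.9 (LFC 0.55 ± 0.14 (SE), FDR = 0.00172). It was not called with the quasi-likelihood test, total-count scaling or epithelial scaling, or without germ-free mouse 3, 4 or 5. Acsl5, a form abundant in intestinal epithelium, had LFC 0.031, FDR = 0.836, and Acsl4, which prefers arachidonic acid, had LFC −0.24, FDR = 0.163.

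Of the 7 peroxins, 2 rose in the test, a share of 28.6% that is near the 28.2% of abundant tested genes called higher and above the 9.20% of all tested genes. The abundant genes are no matched reference here. Pex3, Pex5, Pex11a and Pex14 lay below the 80th percentile that defines them, at 53.1, 71.5, 79.7 and 53.2 in humanized mice. Pex6, an ATPase that recycles the import receptor (LFC 0.34, FDR = 0.00627), and Pex14, a docking protein of the import pore (LFC 0.28, FDR = 0.00978), were called higher, both with overlapping groups. Neither call held with the quasi-likelihood test, under upper-quartile, total-count or epithelial scaling, or with either other filter. With 1 mouse left out, Pex6 was still called without germ-free mouse 3 and humanized mice 2 and 5, and Pex14 without germ-free mouse 2 and humanized mouse 2. Pex14 shares 28.3% of its exon bases with Gm17029. The membrane protein Pex16 had LFC 0.29, FDR = 0.0297 and was called without humanized mouse 2. Pex3 and Pex19, which insert membrane proteins, the import receptor Pex5 and Pex11a, which acts in peroxisome division, had LFC values of 0.059 to 0.15 and FDR values of 0.152 to 0.699. Under total-count or epithelial scaling these 4 were below 0. Pex19 was the most abundant of the 7 peroxins of the list, and its RPKM was 21.6, 25.0, 22.9, 24.8 and 24.5 in germ-free mice 1 to 5, and the lowest, median and highest humanized values were 23.4, 26.8 and 29.9, with overlap.

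Mitochondrial and peroxisomal enzymes were compared within each mouse. The mean log2 CPM of the 16 mitochondrial genes exceeded that of the 12 peroxisomal genes by 1.06, 1.21, 1.14, 1.09 and 1.14 in germ-free mice 1 to 5 and by 1.24, 1.36, 1.23, 1.35, 1.32 and 1.34 in humanized mice 1 to 6. Every humanized mouse was above every germ-free mouse, and the means differed by 0.18. As summed RPKM, the ratio of mitochondrial to peroxisomal enzymes ranged from 2.29 to 2.38 and from 2.52 to 2.66, also without overlap. The difference depended on which genes were counted. Without Eci2, Ech1, Scp2, Amacr and Crat, which are known in both organelles, it was 0.11, and the ranges of 1.44 to 1.59 and 1.55 to 1.69 overlapped. The median LFC was then 0.58 for 15 mitochondrial and 0.51 for 8 peroxisomal enzymes, of which 14 and 5 were higher.

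**Figure D5:**
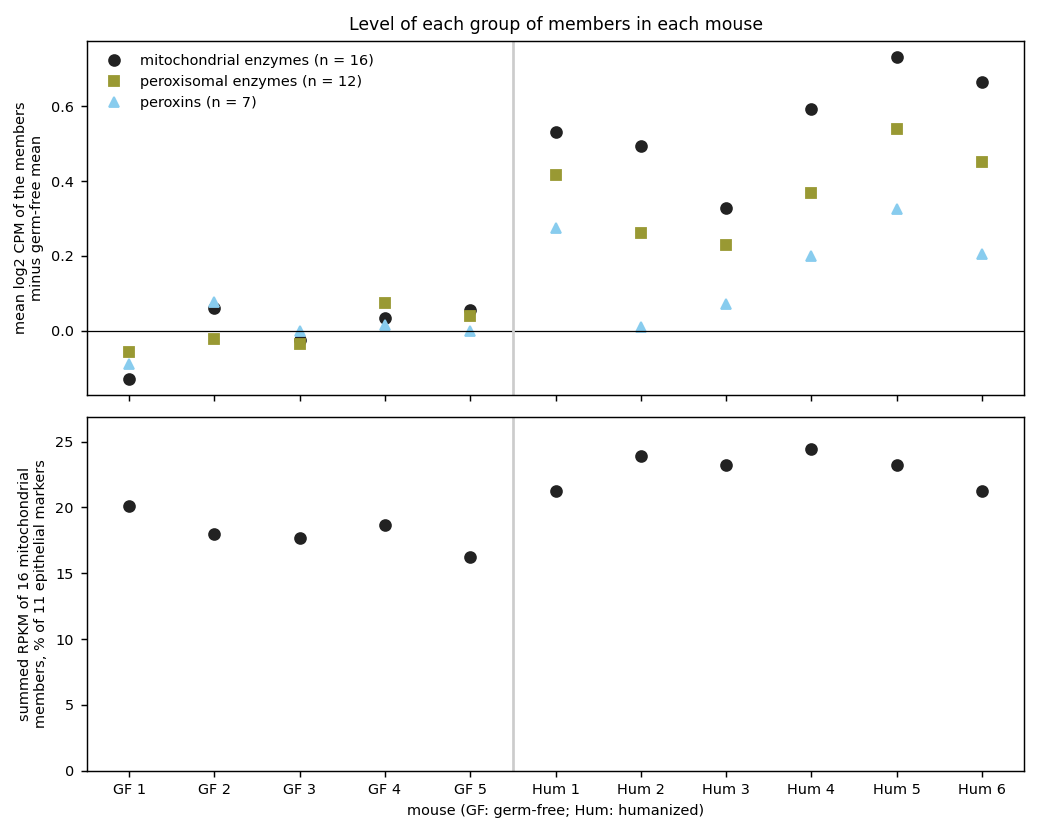
Upper panel, mean log2 CPM of the mitochondrial enzymes, peroxisomal enzymes and peroxins in each mouse, relative to the germ-free mean (y axis). Lower panel, summed RPKM of the mitochondrial enzymes as a percentage of the sum of 11 epithelial markers, which is 16.3 to 20.1% in germ-free and 21.2 to 24.5% in humanized mice.

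Further genes of the same pathways were taken from lists outside the 40 genes. Of 20 other mitochondrial oxidation genes tested, 7 rose and 0 fell, where 9.20% of all tested genes, and 28.2% of abundant ones, were called higher. Among those that rose, Acad8, Acad9 and Acot2 lay below the 80th percentile that defines the abundant ones, at 74.2, 73.1 and 54.1. Slc25a20, the carrier between the palmitoyltransferases, rose from 21.5 ± 1.22 to 41.1 ± 8.13 RPKM (LFC 0.94, FDR = 2.26e-11), as did the palmitoyltransferases Cpt1a and Cpt2 on either side of it. The other forms of the outer enzyme, named here after their values were seen, were not called and had LFC values below 0. Cpt1b went from 2.96 ± 0.211 to 2.36 ± 0.396 RPKM (LFC −0.32, FDR = 0.0895) with overlapping groups. Cpt1c went from 1.23 ± 0.137 to 0.660 ± 0.291 RPKM (LFC −0.90, FDR = 0.0153), and every humanized mouse was below every germ-free mouse. Of 29 other peroxisomal genes tested, 10 rose and 4 fell, against 9.20% and 10.1% of all tested genes. Slc27a2, a very-long-chain acyl-CoA synthetase, was higher (LFC 1.07, FDR = 0.00410), with humanized mouse 6 at 6.66 RPKM and the other humanized mice at 2.08 to 2.48. Without humanized mouse 6 its LFC was 0.67 (FDR = 4.75e-04), and the call was lost without germ-free mouse 1, 2, 3 or 5. Abcd3, a transporter of fatty acids into the peroxisome, named here after its value was seen, went from 71.3 ± 5.36 to 124 ± 13.3 RPKM (LFC 0.80, FDR = 7.50e-15). Abcd2, a related transporter (LFC −1.36, FDR = 9.09e-04), and Ddo, D-aspartate oxidase (LFC −1.92, FDR = 0.00289), fell from below 1 RPKM, and the call of Ddo was lost without germ-free mouse 3 or 4 or humanized mouse 4. Without humanized mouse 6 the LFC of Ddo was −2.63. Of 10 other peroxins 1 was called higher, a share near that of all tested genes.

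Of 14 regulators, 3 rose and 1 fell, against 9.20% and 10.1% of all tested genes. Pparg, the PPAR receptor of adipose tissue and colonic epithelium, went from 35.1 ± 2.87 to 58.8 ± 7.25 RPKM (LFC 0.75 ± 0.087 (SE), FDR = 3.26e-12), and all humanized mice were above all germ-free mice. Ppara (LFC −0.034, FDR = 0.892) and Ppard (LFC 0.069, FDR = 0.695), the receptors best known for driving oxidation genes, were not called. Hnf4a and Tfam also rose, and Nr1h3 fell. The call of Tfam was lost without any single germ-free mouse and without humanized mouse 1, 2 or 5. Of 10 tested genes outside the list that are known to respond to PPAR receptors, 5 rose and 0 fell. Cd36, a fatty acid transporter, was not called (LFC −1.08, FDR = 0.0165) although every humanized mouse was below every germ-free mouse. Ucp3 (LFC −0.92, FDR = 0.183) and Angptl4 (LFC −0.077, FDR = 0.862) had LFC values below 0 and were not called either. Those that rose included Pdk4, which restrains pyruvate oxidation (LFC 1.41, FDR = 6.05e-09), Plin2, a lipid droplet coat protein (LFC 0.97, FDR = 7.37e-18), Acot1, a cytosolic thioesterase (LFC 1.22, FDR = 2.59e-10), and Fabp1, a fatty acid binding protein (LFC 3.19, FDR = 4.50e-12). Fabp1 was low, at 0.0804 RPKM in germ-free and 0.785 in humanized mice. Over all these further lists 26 genes rose and 5 fell, and 10 rose and 6 fell under epithelial scaling, 16 and 8 with total counts, where 3.89% of all tested genes were higher and 18.2% lower.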

How the data were processed

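The authors aligned reads with TopHat2 2.1.0 and Bowtie2 2.2.3 to mm10, counted them per gene with featureCounts of Subread 1.4.6-p5, and deposited raw counts per gene, with a length and position, in 1 table with a column per mouse. The treatment of reads in shared exons or of reads with several alignments is not given in the sources used here. Counts were analysed with edgeR 4.0.16 in R 4.3.3, another version than that of the study, by the steps its methods give: low counts removed by filterByExpr (count 10, total 15), TMM, estimateDisp, the exact test, and Benjamini-Hochberg correction over all tested genes. Standard errors were taken from the quasi-likelihood fit to the same counts. RPKM used the deposited lengths, which equalled the union of GENCODE M21 exons in 26 of 40 genes, so levels depend on how much of a gene is annotated. Log2 CPM used a prior count of 2. Transcripts at least 90% alike over 200 bases were found with blastn 2.17.0. Members and lists were chosen with earlier results of these data known, and so were the ratios between genes. Germ-free values of each mouse and the lowest, median and highest humanized values were given for up to 5 called genes of each place with groups apart, by size of LFC, and for its most abundant gene. From the other lists the 8 called genes of largest LFC and the PPAR genes were named, and Abcd3, Hnf4a, Tfam, Nr1h3, Cd36, Ucp3, Angptl4, Cpt1b and Cpt1c, and the same values of Acaa2 and Acaa1a, were added after their values were seen. Results of some single genes are left out of the text. Alternatives were DESeq2 1.42.0, the quasi-likelihood test, 4 other scalings, 2 other filters, 2 other thresholds (FDR 0.05, or an absolute LFC above 0.58 as well), leaving out each mouse, a replicate block, and genes known in both organelles left out. The labels name no batch. With 5 mice against 6, their number limits the precision.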

Additional observations from a re-analysis of the deposited data

Results flagged for a closer look

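In 4 of 78 groups of values (39 genes in each of the groups of mice), 1 mouse stood apart from the others of its group by Dixon's criterion, and chance gives about 1 in 20. Eci1 was highest in humanized mouse 5, at 55.1 RPKM with the next at 47.9. Ech1 was lowest in germ-free mouse 1, at 73.4 RPKM with the next at 81.1. Acot8 was lowest in germ-free mouse 4, at 12.1 RPKM with the next at 13.2. Pex6 was highest in germ-free mouse 3, at 17.9 RPKM with the next at 15.5, and without that mouse Pex6 was called.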

How the results depend on the processing

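Of the 39 genes, 24 were called. Scaling to epithelial markers gave 13, an absolute LFC above 0.58 gave 9, and leaving out 1 mouse gave 20 to 25. Of the 14 mitochondrial enzymes called, 7 had an LFC above 0.58, and 13 to 14 were called without 1 mouse. Of 12 peroxisomal enzymes 6 were called, and 2 were called with epithelial markers and 2 at an LFC above 0.58, and 6 to 8 without 1 mouse. Of 7 peroxins 2 were called, and 0 were called with the quasi-likelihood test, upper-quartile, total-count or epithelial scaling, no filter, at least 10 counts in every mouse or an LFC above 0.58, and 0 to 3 without 1 mouse. Of 4 synthetases 2 were called, and 1 was called with the quasi-likelihood test, total counts or epithelial markers, 0 at an LFC above 0.58, and 1 to 2 without 1 mouse. The 31 calls among the further lists became 16 with epithelial markers and 15 at an LFC above 0.58, and 24 to 34 without 1 mouse. DESeq2 kept the calls of all 39 genes. The difference between mitochondrial and peroxisomal levels was 0.11 without genes known in both organelles, and 0.16 to 0.20 without 1 mouse.

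The mice share replicate numbers across groups that refer to different animals. Same-numbered mice did not deviate together (correlations of −0.133 to 0.0911), and 1 of 5 correlated best with its own number. The replicate block was fitted with the quasi-likelihood test. Without the block that test already lost the exact-test calls of Acadm, Acsl3, Pex6 and Pex14. With the block, in which humanized mouse 6 has no partner, 14 genes were called, 9 mitochondrial enzymes, 0 peroxins and 0 synthetases, and 13 genes of the further lists. Of all tested genes 19.3% were called by the exact test, 13.6% by the quasi-likelihood test and 5.09% by the latter with the block.

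Signs reversed in genes that were not called. Total-count and epithelial scaling lower the LFC of every gene by a similar amount, so genes with an LFC up to 0.18 pass below 0. With total counts the LFC was −0.0087 for Eci2, −0.058 for Acaa2, −0.16 for Amacr, Crat and Acsl5, −0.080 for Pex3, −0.13 for Pex5, −0.12 for Pex11a and −0.036 for Pex19. With epithelial markers it was −0.021, −0.067, −0.17, −0.17, −0.16, −0.087, −0.14, −0.13 and −0.041 in the order Eci2, Acaa2, Amacr, Crat, Acsl5, Pex3, Pex5, Pex11a and Pex19. With upper quartiles it was −0.0070 for Amacr, −0.010 for Crat and −0.0061 for Acsl5. Without germ-free mouse 2 or humanized mouse 1, Amacr was at −0.038 and −0.023, and Crat was at −0.028 without humanized mouse 5. Over all single mice left out, Amacr ranged from −0.038 to 0.071 and Crat from −0.028 to 0.060. For the mice left out, the cause was not tested.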

Other observations

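Peroxisomal genes outside the 40 and chosen after their values were seen follow. Hao2, a hydroxyacid oxidase, spread widely, with RPKM of 85.3, 96.4, 107, 134 and 69.7 in germ-free mice 1 to 5, and the lowest, median and highest humanized values were 116, 182 and 268 (LFC 0.91, FDR = 8.72e-04), and the groups overlapped. Idh1, the isocitrate dehydrogenase that supplies NADPH in cytosol and peroxisome, went from 63.5 ± 4.12 to 81.3 ± 9.04 RPKM with overlapping groups (LFC 0.36, FDR = 0.00113). Ephx2, which hydrolyses epoxides of fatty acids, fell from 29.7 ± 3.22 to 17.1 ± 3.002 RPKM, with every humanized mouse below every germ-free mouse (LFC −0.80 ± 0.12 (SE), FDR = 8.30e-09). Lonp2, a protease of the peroxisomal matrix (LFC 0.40, FDR = 2.17e-06), and Pxmp4, a peroxisomal membrane protein (LFC 0.50, FDR = 5.88e-07), rose without overlap between the groups.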
